A study of Mus musculus with 6 samples.

Results

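The 10 genes described here encode proteins that build, coat or unload plasma lipoproteins: the apolipoproteins Apoa1, Apoa4, Apoa5, Apob, Apoc2, Apoc3, Apoe and Apom, the assembly factor Mttp and the lipase Lpl. They were found by gene name among the probes that are not controls, and 12 of the 39429 probes on the array carry one of these names, 2 each for Apob and Lpl and 1 for each other gene. RNA came from liver outside the tumours of 6 male C57BL/6 mice, 5 weeks old at the start, of which 3 were fed a diet with moderately restricted carbohydrate and 3 a control diet. All 6 mice received, by rapid tail vein injection, a transposon vector that carries human HrasG12V, a short hairpin RNA against p53 (shp53) and GFP4, so neither diet group is free of the cancer model, and the labels name no promoter for the vector. The titles of both groups call the diet supplemented and name no supplement. Feeding lasted 1 week before and 5 weeks on the diets by the sample labels, but 2 and 4 weeks by the series text, which alone adds multiple phytochemicals to the restricted diet (MCDmp). Each mouse gave 1 single-colour array, and the number of arrays limits the precision of every value.

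Lipoproteins carry triglyceride and cholesterol through the blood. In hepatocytes the microsomal triglyceride transfer protein, encoded by Mttp, loads lipid onto apolipoprotein B as it is made, and the particle leaves the cell as very low density lipoprotein, whereas apolipoprotein A-I forms high density lipoprotein. In the circulation lipoprotein lipase, activated by apolipoprotein C-II and held back by apolipoprotein C-III, removes the triglyceride, and apolipoprotein E then serves as a ligand for uptake of the remnants by the liver.

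The array reads each gene through 60-base oligonucleotides. The probes shown are those on which the results for assembly, for the main high density lipoprotein protein and for saturation turn, each read 5′ to 3′ from the deposited files in lower case, and the Apob pair is shown because the gene was measured at both sites.
Mttp: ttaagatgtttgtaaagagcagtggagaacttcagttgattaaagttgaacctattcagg
Apob, upstream probe: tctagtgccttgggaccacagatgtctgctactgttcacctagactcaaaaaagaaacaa
Apob, downstream probe: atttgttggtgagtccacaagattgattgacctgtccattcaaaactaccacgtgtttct
Apoa1: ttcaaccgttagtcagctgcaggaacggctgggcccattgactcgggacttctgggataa
Apoa4: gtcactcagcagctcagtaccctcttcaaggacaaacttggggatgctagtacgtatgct
Apoe: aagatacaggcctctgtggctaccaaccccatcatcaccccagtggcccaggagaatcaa

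None of the 12 probes shared a run of 20 bases with another probe on the array. The Mttp probe (NM_001163457) lies on mm9 chr3:137753868-137753927, minus strand. The Apob probes (NM_009693) lie on the plus strand at mm9 chr12:8012697-8012756 and chr12:8023194-8023253, and their starts are 10497 bases apart. Probes for Apoa1 (NM_009692, chr9:46037921-46037980, plus strand), Apoc3 (NM_023114, chr9:46041134-46041193, minus strand), Apoa4 (NM_007468, chr9:46049661-46050404, plus strand) and Apoa5 (NM_080434, chr9:46079943-46080002, plus strand) fall within 42082 bases of each other. The Apoa4 probe holds 60 bases but covers 744 bases of the genome, so it spans a gap between aligned blocks. Probes for Apoc2 (NM_009695, chr7:20257027-20257086) and Apoe (NM_009696, chr7:20281732-20281791) lie on the minus strand of another cluster. The Apom probe (NM_018816) lies at chr17:35267047-35267106, minus strand, and the Lpl probes (NM_008509) at chr8:71430267-71430326 and chr8:71425050-71425109, plus strand. The files do not state which exon or untranslated region a probe covers.

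Values below are log2 signals relative to the array's own 75th percentile of signal, which lay between 287 and 574 over the 6 arrays. Between 23527 and 25816 of the 39429 probes gave a signal well above background. The comparison asks how the diets differ, and a gene was called when limma's moderated test gave a Benjamini-Hochberg adjusted p under 0.05 over all 19616 features. In that fit 5386 features (27.5%) were called, 14.6% higher and 12.8% lower on the restricted diet, and the median feature was 0.12 higher. Of those calls 53.2% were higher, against 20.8% without scaling between arrays, where the median feature was -0.22. The tissue label fits its defining markers: of 14 hepatocyte genes tested, 8, albumin (Alb) among them, saturated the scanner on all 6 arrays. Of 20 macrophage and Kupffer cell genes tested, 19 were lower on the restricted diet and none higher. Their summed log2 level was 6.14 to 6.64 on the restricted diet and 8.26 to 8.63 on the control diet, and the part of these cells in the results for Lpl, Apobec1 and Abcg1 was not tested. In bulk tissue fewer cells of a type and less RNA per cell cannot be told apart.

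All 10 genes passed the filter on dim probes, but 2 of them, Apoc3 and Apoe, were saturated on every array of both diets and their difference cannot be given. Of the remaining 8, only Mttp was called, higher on the restricted diet, and none was called lower. That is 1 of 8 genes against 27.5% of all features. In 3 of the 8 genes no restricted value lay within the control range, against 44.8% of all features: Mttp and Apoc2 lay higher on the restricted diet (26.1% of all features) and Apoa1 lower (18.8%). For Apoc2 the ceiling of the scanner and the scaling kept control mouse 1 below the restricted mice. The median difference of the 8 genes was 0.34 and that of all features 0.12. Mttp, Apoc2, Apoa1 and Apoa4 had an unadjusted limma p under 0.05. The 27.5% of all features called meet that threshold too, and the full share of features that meet it was not counted.

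**Figure D1:**
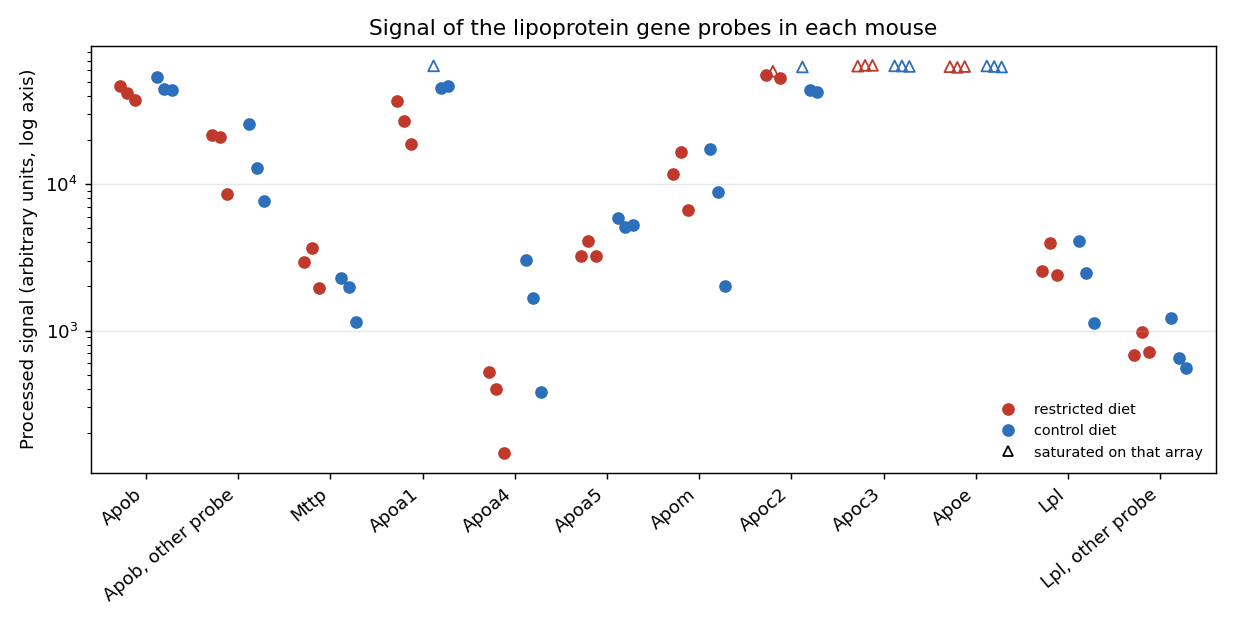
Processed signal (arbitrary units, log axis) of the 12 probes in each mouse; every point is 1 array, restricted mice in red on the left and control mice in blue on the right of each gene, with open triangles where the probe was saturated. Apoc3 and Apoe are saturated in all 6 mice, and the Apoa1 points of the restricted mice lie below those of the control mice.

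Mttp was the member that rose. Its log2 signals were 2.95, 3.11 and 2.77 in restricted mice 1 to 3, against 1.99, 2.11 and 1.69 in control mice 1 to 3. Every restricted mouse lay above every control mouse. Restricted mice averaged 2.94 ± 0.17 and control mice 1.93 ± 0.22 (SD, n = 3 each). The difference was 1.02 ± 0.19 (SE), or 2.02-fold, with limma's adjusted p = 0.00888. Before scaling, the processed signals were 2929, 3676 and 1961 in restricted mice and 2285, 1969 and 1149 in control mice, ranges that overlap, and without scaling between arrays the difference was 0.68 with adjusted p = 0.255. All control mice and restricted mouse 1 shared a slide, with restricted mice 2 and 3 on another. With the slide as a block the difference was 1.02 (adjusted p = 0.0670), and within slide 1 alone it was also 1.02. The other slide held restricted mice only, so both fits compare restricted mouse 1 alone with the control mice, and their agreement was fixed by the design. Mttp acts as a heterodimer with protein disulfide isomerase, encoded by P4hb, whose signal differed by -0.02 ± 0.35 (adjusted p = 0.974), a sign that turned under 6 of the alternatives, with no call.

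Apob, the structural protein of very low density lipoprotein, did not pass the test at either probe. The upstream probe, the brighter one, read 6.95, 6.63 and 7.03 in restricted mice and 6.57, 6.61 and 6.94 in control mice. These ranges overlap, and the difference was 0.17 ± 0.20 (SE, 95% interval -0.29 to 0.63, adjusted p = 0.559). Its sign turned with quantile normalization (-0.16) and without scaling between arrays (-0.17). The downstream probe read 5.85, 5.62 and 4.91 in restricted mice and 5.50, 4.81 and 4.43 in control mice, a difference of 0.55 ± 0.35 (95% interval -0.28 to 1.37, adjusted p = 0.295). At this probe mouse 3 was the lowest of its group on both diets. The upstream probe was unsaturated, although 2 of the 61 pixels of its spot were saturated in control mouse 1, where its processed signal was 54393.

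Apoa1, the main protein of high density lipoprotein, was lower on the restricted diet in every mouse but did not pass the test. Its log2 signals were 6.62, 6.00 and 6.03 in restricted mice, against 6.81, 6.63 and 7.03 in control mice. The gap between the diets was narrow, at restricted mouse 1 and control mouse 2. The difference was -0.61 ± 0.23 (SE, adjusted p = 0.0938). Control mouse 1 was saturated, so its true signal may be higher than the value used. The call changed with quantile normalization (-0.98, adjusted p = 0.0189) and without restricted mouse 1 (-0.81, adjusted p = 0.0404), while under the slide block it was -0.20 (adjusted p = 0.674). Restricted mouse 1, the one that shared the slide of the control mice, was also the highest of its group.

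The Apoa1 probe was spotted 10 times on each array, which shows how closely spots of an array agree. Within an array the SD of its spots was 0.0603, 0.0251 and 0.0429 on the log2 scale in restricted mice and 0.0472, 0.0310 and 0.0477 in control mice. The value of control mouse 1 comes from saturated spots and does not measure the error of its signal. Between mice the SD was 0.35 on the restricted and 0.20 on the control diet. Median processed signals of the spots were 37471, 27179 and 19052 in restricted mice 1 to 3, against 64179, 45463 and 46690 in control mice 1 to 3. In control mouse 1 the scanner software marked 2 of the 10 spots as outliers, which were left out, and the other 8 were all saturated.

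**Figure D2:**
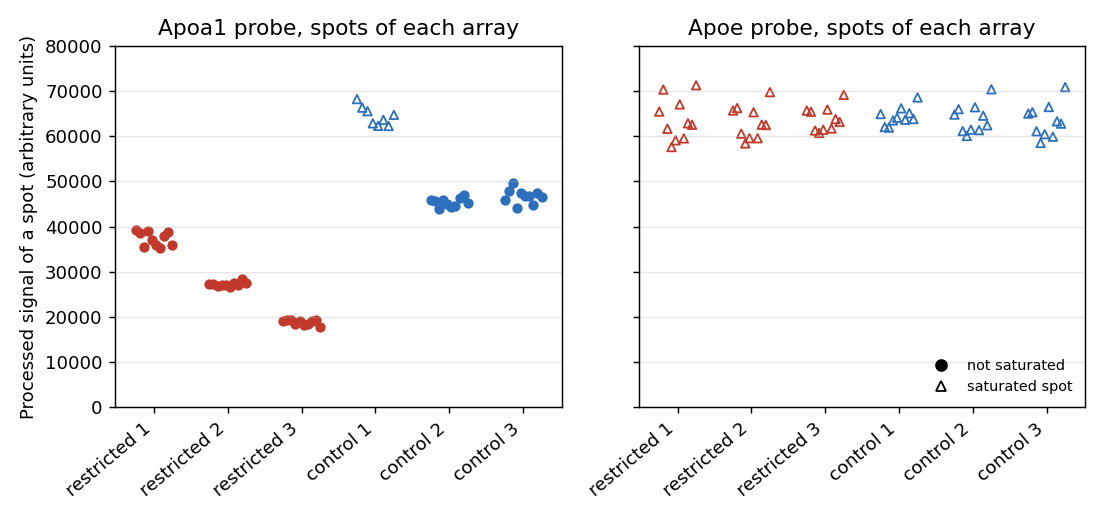
Processed signal (arbitrary units) of the replicate spots of the Apoa1 probe and of the Apoe probe on each array, restricted mice in red and control mice in blue, open triangles for saturated spots. Apoa1 spots of a mouse lie close together and mice differ, whereas every Apoe spot sits at the ceiling of the scanner in all 6 mice.

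Apom, which carries sphingosine-1-phosphate on high density lipoprotein, did not separate the diets. It read 4.96, 5.29 and 4.53 in restricted mice and 4.93, 4.27 and 2.50 in control mice. Control mouse 3 stood lowest, and the ranges overlap. The difference was 1.03 ± 0.59 (SE, 95% interval -0.37 to 2.42, adjusted p = 0.242), as large as that of Mttp with a wider error, and it was 0.33 without control mouse 3.

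Apoa4, which is secreted on triglyceride-rich particles by intestine and liver, had the largest fitted difference among the 8 genes and did not pass. Its log2 signals were 0.45, -0.10 and -0.99 in restricted mice, against 2.41, 1.87 and 0.10 in control mice. Control mice 1 and 2 lay above all restricted mice, and control mouse 3 lay within the restricted range. The difference was -1.67 ± 0.63 (SE, adjusted p = 0.0929). Without control mouse 3 it was -2.35 and passed (adjusted p = 0.0133), with array weights it was -2.01 (adjusted p = 0.0134), and under the slide block -1.01 (adjusted p = 0.514). Processed signals were 518, 396 and 145 in restricted mice and 3046, 1677 and 382 in control mice, far from saturation.

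Apoa5, which promotes clearance of triglyceride by lipoprotein lipase, read 3.101, 3.27 and 3.49 in restricted mice and 3.35, 3.49 and 3.89 in control mice. The ranges overlap, and the difference was -0.29 ± 0.21 (SE, 95% interval -0.78 to 0.21, adjusted p = 0.353). In processed signal the restricted mice read 3246, 4103 and 3238 and the control mice 5841, 5134 and 5291, so the diets separated before scaling and overlapped after it. With the slide as a block it was -0.47 (adjusted p = 0.362).

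Apoc2, the cofactor of lipoprotein lipase, read 7.19, 7.12 and 7.54 in restricted mice and 6.79, 6.59 and 6.91 in control mice. Every restricted mouse lay above every control mouse, and the difference was 0.52 ± 0.19 (SE, adjusted p = 0.0855). The probe was saturated in restricted mouse 2 and in control mouse 1, and 20 of 59 pixels were saturated in restricted mouse 1. On the array of control mouse 1 the fully saturated Apoc3 probe read 6.81, below every Apoc2 value of the restricted mice. At any RNA level control mouse 1 could therefore not have overlapped them, and the separation rests on control mice 2 and 3. Processed signals were 55395, 59176 and 53494 in restricted mice and 63364, 44171 and 42973 in control mice. Before scaling control mouse 1 thus read higher than restricted mice 1 and 3. Control mouse 1 and restricted mouse 2, both saturated, cannot be ranked. Apoc2 passed with median scaling (0.61, adjusted p = 0.0393), array weights (0.53, adjusted p = 0.0442) and trend and robust moderation (0.52, adjusted p = 0.0467), while it was 0.10 with quantile normalization, 0.18 without scaling between arrays and 0.43 under the slide block (adjusted p = 0.685, 0.685 and 0.385).

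Apoc3, which inhibits lipoprotein lipase, and Apoe, the remnant ligand, were saturated in every mouse. The Apoc3 signals were 64136, 64951 and 64974 in restricted mice and 64424, 64303 and 63875 in control mice, and every pixel of each spot was saturated. Apoe was spotted 10 times, all 10 spots were saturated on all 6 arrays, and their median signals were 62701, 62513 and 63476 in restricted mice and 63947, 63477 and 63044 in control mice. The array therefore gives no comparison of these genes in either direction.

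Scaling by the 75th percentile gives a signal that is equal on all arrays a log2 difference of 0.34, because that percentile was on average lower in restricted mice (378, 425 and 287, against 574, 457 and 357 in control mice). The 109 features saturated on all 6 arrays had fitted differences of 0.29 to 0.40, with a median of 0.34, and none was called. Apoc2 and the upstream Apob probe sit close to this ceiling, and their differences of 0.52 and 0.17 lie on either side of 0.34. Mttp, whose processed signal was at most 3676, lies far below the ceiling. The shift of 0.34 from the scaling nonetheless enters its difference, as it enters that of every probe at any brightness.

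Lpl, the lipase that frees fatty acids from circulating particles, is made in muscle, fat and macrophages more than in adult hepatocytes. The brighter probe, at chr8:71430267-71430326, read 2.76, 3.22 and 3.05 in restricted mice and 2.84, 2.43 and 1.66 in control mice. The ranges overlap, since control mouse 1 lay above restricted mouse 1, and the difference was 0.70 ± 0.32 (SE, 95% interval -0.05 to 1.45, adjusted p = 0.148). The other probe read 0.84, 1.21 and 1.31 in restricted mice and 1.08, 0.50 and 0.63 in control mice, a difference of 0.38 ± 0.23 (adjusted p = 0.255). With the slide as a block the brighter probe gave 0.45 (adjusted p = 0.585). The fat cell genes Adipoq and Plin1, like the muscle genes Ckm, Actn3, Myh4, Mb and Tnnt3, did not pass the filter on dim probes. Of 7 fat cell genes that passed it 1, Cidea, was lower, against 12.8% of all features called lower. Cidea passed that filter through the control diet alone, being well above background in 1 of 3 restricted mice. The summed level of the 7 genes was 2.63 to 3.63 on the restricted diet and 2.1001 to 3.49 on the control diet.

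**Figure D3:**
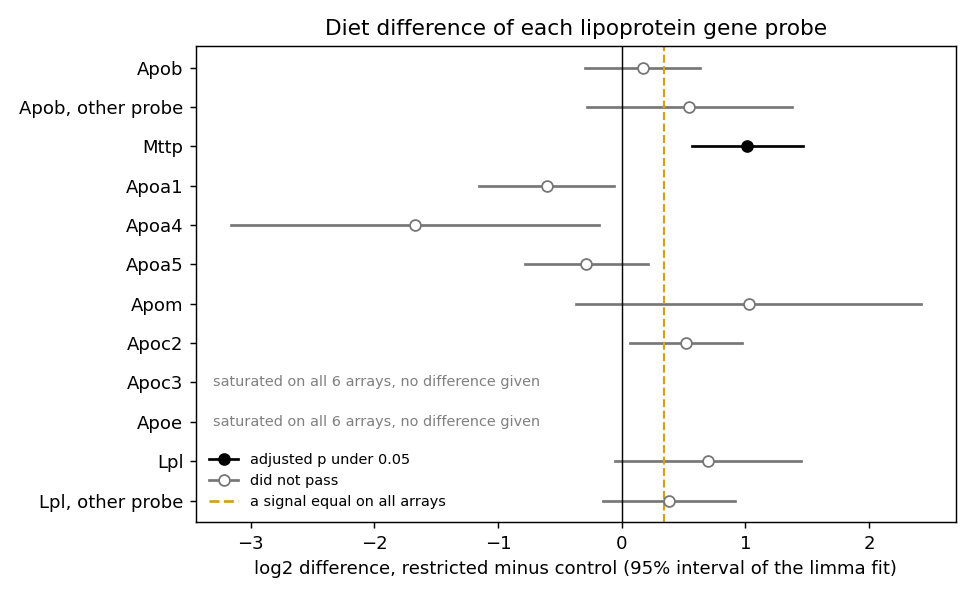
Fitted log2 difference, restricted minus control, of each probe with its 95% interval; filled black for adjusted p under 0.05, open grey otherwise, and a dashed line at 0.34, the value of a signal equal on all arrays. Mttp at 1.02 is the only filled point, and Apoa1, Apoa4 and Apoa5 lie left of 0.

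The other genes of the pathway were read from 6 lists, of which 71 genes could be measured. Of all features 27.5% were called, 14.6% higher and 12.8% lower, with a median of 0.12. Among 19 genes of apolipoprotein B particle assembly, editing and secretion, 8 were higher, 1 was lower and 10 did not pass, with a median of 0.49. Dgat2, which makes the triglyceride for the particle, read 6.94, 7.02 and 7.14 in restricted mice and 5.22, 5.57 and 5.65 in control mice, a difference of 1.55 ± 0.18 (SE, adjusted p = 0.00148). Ces3a, a carboxylesterase of the hepatocyte endoplasmic reticulum, was saturated in all restricted mice, so their true signal may be higher than the value used. At this scaling it was 2.80-fold higher (1.49 ± 0.21, adjusted p = 0.00289), and with quantile normalization the difference was 1.11. Mia2, which helps load large cargo at endoplasmic reticulum exit sites, read 4.41, 4.23 and 4.36 in restricted mice and 3.29, 3.25 and 3.48 in control mice, a difference of 1.00 ± 0.16 (adjusted p = 0.00517). Its other probe differed by 0.97, with overlapping ranges (adjusted p = 0.0827), and the call of the brighter probe was lost on slide 1 alone (1.07, adjusted p = 0.0796) and without scaling (0.66, adjusted p = 0.135). The others higher were Cideb (0.95 ± 0.18), Mia3 (0.79 ± 0.19), Sar1b (1.34 ± 0.38) and Arfrp1 (0.54 ± 0.16), chosen for naming after their values were seen. None of these 4 calls held under the slide block (adjusted p = 0.0646, 0.168, 0.121 and 0.169, in that order) or without scaling between arrays (0.164, 0.242, 0.277 and 0.681). Cideb kept its call without each mouse in turn. Mia3 lost it without restricted mouse 2 or 3 or control mouse 1 or 2 (adjusted p = 0.0652 to 0.0808). Sar1b lost it without any mouse but restricted mouse 3 (0.0515 to 0.121), and Arfrp1 without any mouse (0.0532 to 0.142). Quantile normalization ended the calls of Mia3, Sar1b and Arfrp1 (adjusted p = 0.113, 0.0701 and 0.0766), while Cideb kept its call (0.0498). Without a background filter Sar1b and Arfrp1 lost theirs (0.0724 and 0.0731).

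Of the 3 genes in that list that act in Apob mRNA editing, 1 was lower, 1 was higher and 1 did not pass. Apobec1, the cytidine deaminase that edits Apob mRNA and yields the short B-48 form, read 0.76, 0.91 and 1.40 in restricted mice and 2.18, 2.09 and 2.13 in control mice, and fell by 1.11 (SE 0.21, adjusted p = 0.00904). It was named after its values were seen. A1cf, the RNA-binding cofactor of that enzyme, read 1.14, 1.88 and 2.13 in restricted mice and -0.25, -0.09 and 0.35 in control mice, a difference of 1.71 ± 0.30 (adjusted p = 0.00674). A1cf was 1.14 under the slide block (adjusted p = 0.0620). Syncrip, an RNA-binding protein of the editing complex, differed by -0.52 ± 0.23 (adjusted p = 0.138), with ranges that overlap, and passed with array weights (-0.71, adjusted p = 0.0236) and without control mouse 3 (-0.70, adjusted p = 0.0484). Editing of the Apob transcript itself is not measured by these probes.

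Of 7 plasma lipase genes and their regulators that passed the filter 2 were higher and none lower, against 27.5% of all features called. Their median was 0.57, and Lipg did not pass the filter. Lipc, hepatic lipase, read -0.20, -0.37 and -1.002 in restricted mice and -2.14, -1.92 and -2.26 in control mice, a difference of 1.58 ± 0.25 (adjusted p = 0.00439), which did not pass without scaling between arrays (1.24, adjusted p = 0.0738). Gpihbp1, which holds the lipase on capillary endothelium, differed by 1.15 ± 0.24 (adjusted p = 0.0134, or 0.0743 under the slide block and 0.145 without scaling). Beside it, 3 of 8 liver endothelial genes were higher and 1 lower, with a summed level of 5.29 to 5.72 on the restricted diet and 4.76 to 5.33 on the control diet, and their part in the Gpihbp1 result was not tested.

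Among 10 genes of high density lipoprotein and lipid transfer 3 were higher and 1 lower, against 27.5% of all features called. Their median was 0.23. Pltp, the phospholipid transfer protein, read 1.88, 2.17 and 2.43 in restricted mice and -0.28, 0.32 and 0.57 in control mice, a difference of 1.95 ± 0.27 (adjusted p = 0.00268, or 0.0595 on slide 1 alone). Abcg5 and Abcg8, which pair as the sterol exporter of bile, differed by 1.25 ± 0.23 and 1.82 ± 0.18 (adjusted p = 0.00790 and 0.000770), and with the slide as a block Abcg5 was 1.09 (adjusted p = 0.0815). Abcg1, which moves cholesterol out of macrophages to high density lipoprotein, read -0.70, 0.23 and -0.27 in restricted mice and 1.92, 2.01 and 1.88 in control mice, and fell by 2.19 (SE 0.25, adjusted p = 0.00131). Macrophage genes were lower in the same mice.

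Of 10 lipoprotein receptor genes and regulators that passed the filter 1, Vldlr, was called, against 27.5% of all features. Vldlr, the very low density lipoprotein receptor, read 1.99, 1.90 and 1.90 in restricted mice and -1.996, -1.38 and -2.77 in control mice, a difference of 3.98 ± 0.34 (adjusted p = 0.000501), or 15.8-fold. No control mouse gave a signal well above background at its other probe, which was at least 7.24-fold higher (adjusted p = 0.000300), measured against the lowest signal well above background. The other 9 did not pass, and the median of the list was 0.05. Lrp8 did not pass the filter.

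Among 13 other genes named as apolipoproteins or grouped with them, Apoa2, Apoc1 and Clu were saturated on all 6 arrays. Of the 10 counted as measurable, being unsaturated on at least 1 array, 2 were higher and none lower, against 27.5% of all features called. Their median was 0.29. It includes Saa1 and Saa2, saturated on all control arrays and on 2 restricted arrays, and Apoh, saturated on 2 arrays of each diet. The ceiling limits the differences of these genes. The pair called, Apoo (1.54 ± 0.18, adjusted p = 0.00137) and Apool (0.74 ± 0.15, adjusted p = 0.0122), encode subunits of the complex that shapes mitochondrial cristae, although they carry an apolipoprotein name. Apoo had 3 probes in the kept set, and all 3 separated the diets. The Apool call did not hold with the slide as a block (0.70) or without restricted mouse 2 (0.73, adjusted p = 0.0545), and without scaling between arrays neither Apoo (adjusted p = 0.0521) nor Apool (0.385) passed.

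Of 15 transcription factors that act on apolipoprotein genes 3 were higher and 1 lower, near the 27.5% of all features called. Their median was 0.55. Ppara, the fatty acid sensor and fibrate target, read 5.44, 5.53 and 5.68 in restricted mice and 3.70, 3.50 and 4.49 in control mice, a difference of 1.65 ± 0.28 (adjusted p = 0.00558, or 0.0554 with the slide as a block). Nr1h4, the bile acid receptor, differed by 1.60 ± 0.41 (adjusted p = 0.0271), Foxa2, a hepatocyte factor, by 1.36 ± 0.37 (adjusted p = 0.0330), and Srebf2, the regulator of sterol synthesis, fell by 0.92 (SE 0.23, adjusted p = 0.0252). With the slide as a block these 3 calls did not hold (Nr1h4 0.148, Foxa2 0.0708 and Srebf2 0.217 as adjusted p). The Nr1h4 call also ended without any 1 mouse other than control mouse 3 (adjusted p = 0.0638 to 0.0899). Foxa2 lost its call without restricted mouse 1 or 3 or control mouse 2 or 3 (adjusted p = 0.0546 to 0.0899), and Srebf2 without restricted mouse 2 or 3 or control mouse 1 or 2 (adjusted p = 0.0669 to 0.0861). Srebf2 also missed with normexp background correction (-0.51, adjusted p = 0.0527), median scaling (-0.83, adjusted p = 0.0581) and no scaling (-1.26, adjusted p = 0.0746), while its other probe fell by 1.64 (adjusted p = 0.00121). Quantile normalization ended the calls of Nr1h4 (1.33, adjusted p = 0.0656) and Foxa2 (1.199, adjusted p = 0.0537). Hnf4a, a main activator of Apob, Mttp and Apoc3, differed by 0.55 ± 0.24 and did not pass (adjusted p = 0.137), with 1 restricted array saturated.

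**Figure D4:**
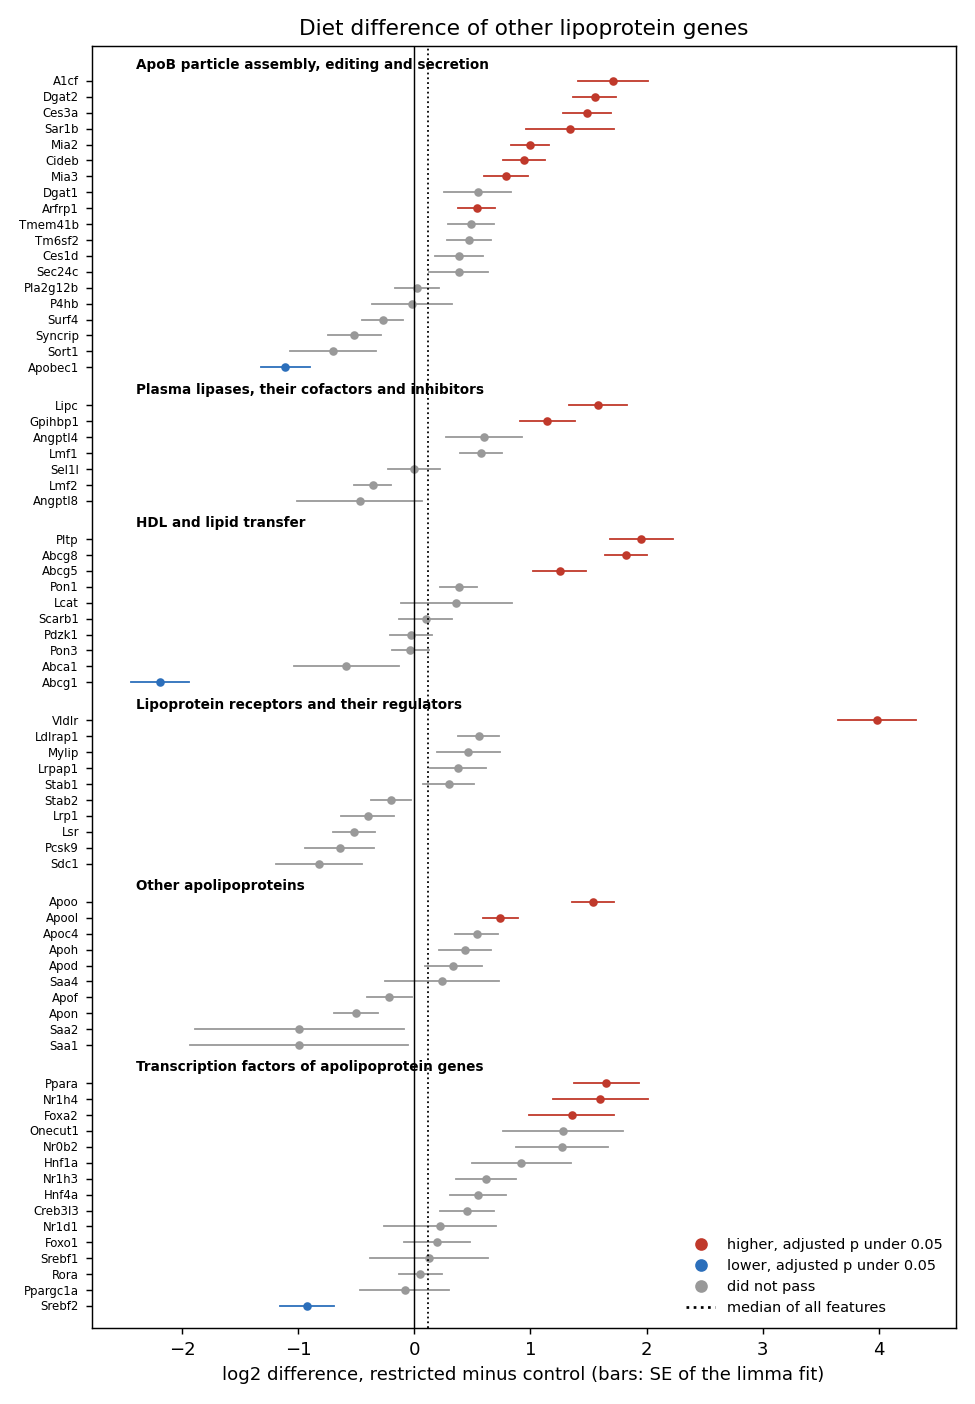
Fitted log2 difference, restricted minus control, of the measurable genes of the 6 lists with SE bars, red for higher and blue for lower at adjusted p under 0.05, grey for the rest, and a dotted line at 0.12, the median of all features. Vldlr stands farthest to the right at 3.98 and Abcg1 farthest to the left at -2.19.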

How the data were processed

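The arrays (design 026655, mm9) were read with Agilent Feature Extraction, version 10.7.3.1 per the file headers and 9.3.2.1 per the submitters' processing notes. The deposited intensity is background-subtracted and detrended within the array per the file headers, and not scaled between arrays. The deposited value table holds the mean of those intensities within 0.1% for 99.7% to 99.8% of probes, on the linear scale and not centred, as found by comparison with the feature files.

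From 43020 spots per array, outliers (127 to 251) were left out, log2 was taken, spots were averaged and the 75th percentile subtracted. A probe was kept if its signal was well above background throughout 1 diet or both, on the arrays that measured it. Each gene was represented by its brightest kept probe (19616 features). Other probes of a gene come from a fit of every kept probe. A probe counts as saturated, or well above background, on an array when at least 50% of its spots carry that flag. Saturated pixel counts are those deposited in the feature files per the file headers. RefSeq accessions of the GRCm38.p6 table, used for names alone, matched 26055 probes and changed the names of 3358. Diets were compared with limma 3.58.1 in R 4.3.3, two-sided. Replicates are separate mice. All members are named, and from each list up to 4 called genes with the smallest p. Apobec1, Cideb, Mia3, Sar1b, Arfrp1, P4hb, Syncrip, Hnf4a, Saa1, Saa2, Fabp2 and Cidea were given values outside that rule. Some genes of the pathway are not reported here and were left out of the lists after the fit. The members and lists were chosen with earlier results of these data known. On simulated arrays with few changed features 66 of 100 differences of 2 and 16 of 100 of 1 on the log2 scale were recovered, and 4 of 86 calls were false.

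Alternatives were normexp background correction, quantile and median scaling, the deposited table, other filters, saturated probes left out, every probe, trend and robust moderation, array weights, blocks for mouse number and slide, slide 1 alone and leaving out each mouse. No scaling between arrays was added after seeing the data.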

Additional observations from a re-analysis of the deposited data

How the results depend on the processing

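Differences of the members and of 27 other genes were recomputed. The 27 gave 510 comparisons, of which 416 kept direction and call, 86 lost the call, 2 gained it and 6 reversed, all 6 of P4hb, whose difference was 0.072 with median scaling, 0.37 with the slide as a block and on slide 1 alone, and -0.29 to 0.27 without each mouse in turn. Among members, Apob reversed with quantile normalization (-0.16) and without scaling between arrays (-0.17). Mttp lost its call with the slide as a block (1.02), on slide 1 alone (1.02) and without scaling (0.68). Calls were gained by Apoa1 with quantile normalization (-0.98), by Apoa4 with array weights (-2.01), and by Apoc2 with median scaling (0.61), trend and robust moderation (0.52) and array weights (0.53). Without each mouse in turn Apoa1 ranged from -0.81 (without restricted mouse 1, now called) to -0.50 and Apoa4 from -2.35 (without control mouse 3, now called) to -1.20. The 1 member called became 2 with quantile normalization, median scaling, or trend and robust moderation, 3 with array weights, 0 with the slide as a block, on slide 1 alone or without scaling, and 1 to 2 without each mouse. The 5386 features called became 3013 with the slide as a block (37.2% higher, against 53.2%), 2444 on slide 1 alone and 3295 without scaling, and ranged from 3357 (without control mouse 2) to 5889 without each mouse, with 3430 without restricted mouse 2. Median scaling moved the median of all features to 0.21. Calls among the other apolipoproteins were 4 with array weights, 1 with the slide block, 1 on slide 1 alone, 0 without scaling and 1 to 3 without each mouse. Calls in the apolipoprotein B assembly list were 4 with the slide block, on slide 1 alone and without scaling. Plasma lipases had 1 call with the slide block, 1 on slide 1 alone and 0 without scaling, and high density lipoprotein genes had 2 on slide 1 alone. Receptors had 2 with normexp, 3 with quantile normalization, 2 with trend and robust moderation and 2 with array weights. Transcription factors had 2 without a background filter, 7 with array weights, 0 with the slide block, 0 on slide 1 alone, 2 without scaling and 1 to 6 without each mouse. Mice of the 2 diets that share a number had correlations of 0.384, -0.002 and 0.482 between their deviations. The titles number the mice and state no pairing, and whether mice of a number shared more was not tested. With that number as a replicate block 6623 features and 3 members were called, Apoa4 (-1.67, adjusted p = 0.00663) and Apoc2 (0.52, adjusted p = 0.0485) gaining a call, and receptors had 3 calls. With saturated probes left out Apoa1 and Apoc2 gave no value. The cause of these changes was not tested. Slide 1 alone and leaving out a mouse hold fewer samples, and every difference under the slide block compares restricted mouse 1 alone with the control mice. Signal near the ceiling limits Apoc3, Apoe, Apoc2, Apoa1 and Apob.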

Other observations

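Saa1 and Saa2, closely related acute phase apolipoproteins that may share signal on the array, read far lower in 1 mouse than in the rest. They were chosen after their values were seen. Saa1 had processed signals of 64499, 61789 and 3616 in restricted mice 1 to 3 and of 59939, 62191 and 61757 in control mice 1 to 3. Saa2 had 62354, 62907 and 4006 in restricted mice and 63814, 62742 and 62311 in control mice. Both were saturated on all control arrays and on 2 restricted arrays, so only restricted mouse 3 gave a reading below the ceiling. Neither passed the test (adjusted p = 0.470 and 0.451).

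Fabp2, a fatty acid carrier used here as a marker of intestinal epithelium, read 4.20, 4.84 and 4.38 in restricted mice and 2.82, 3.49 and 2.80 in control mice (log2 relative to the 75th percentile), a difference of 1.44 ± 0.27 (SE, limma's adjusted p = 0.00843, or 0.0930 under the slide block). The other 5 genes of that list, Vil1, Cdx2, Sis, Lct and Muc2, did not pass the filter on dim probes. Cidea, a lipid droplet protein, was 3.15 lower on the restricted diet (SE 0.72, limma's adjusted p = 0.0185, or 0.184 under the slide block). It was well above background in 1 of 3 restricted mice and in all control mice, which read 0.04, -1.64 and -2.79. With dim signals raised to the lowest signal well above background it was 7.99-fold lower. The size depended on the background correction, and with normexp the difference was -1.36 (adjusted p = 0.0470).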
